A study of Rattus norvegicus with 12 samples.

Results

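The cilium and axoneme genes described here were the rows of the deposited expression table whose name begins with Cfap, Dnah, Ift, Bbs or Rsph followed by a digit. Of 32761 features 66 matched, and the 35 with at least 0.5 CPM (reads of a gene scaled to the total reads of its library) in at least 1 of the 4 groups were described as members. The RNA came from cells named iAM-1, atrial myocytes of newborn Wistar rats made into a line that multiplies under a doxycycline-controlled immortalizing gene and differentiates once doxycycline is withdrawn. The series asked how the transcriptome of these cells changed when Sbk2, a kinase gene of the SH3-binding domain family, was knocked down. The 12 libraries formed 4 groups of 3: cells with Sbk2 shRNA 1, cells with Sbk2 shRNA 2, cells with the control shRNA ppluc, all 3 given as lentiviral vectors shortly after differentiation had begun, and untransduced cells. Every group came from the same line and was differentiated without doxycycline in medium with 2% serum. All titles are marked D9 and P10, without an explanation.

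Cilia are thin protrusions built on a core of microtubule doublets, the axoneme. Intraflagellar transport, the shuttling of protein trains along the axoneme by a kinesin outward and a dynein inward, builds and maintains them, and the BBSome, a complex of Bardet-Biedl syndrome proteins, rides these trains and moves membrane receptors. Primary cilia, present singly on many cells and also described on heart cells of embryonic and newborn animals, use both systems. Motile cilia and sperm tails additionally carry axonemal dyneins, radial spokes and many cilia and flagella associated proteins, for which the Dnah, Rsph and Cfap genes are named.

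The 14 Ift and 8 Bbs rows were all members, against 9 of 27 Cfap rows, 1 of 11 Dnah rows and 3 of 6 Rsph rows. Of the 35 members, 31 reached 0.5 CPM in all 4 groups. The other 4, Cfap77, Cfap99, Rsph1 and Rsph9, did so only in groups given an Sbk2 shRNA, so that their higher level there is part of how they were chosen. Among the 31 rows under the threshold, 10 had 0 reads in all 12 libraries, and no row had more than 70 reads in the 12 libraries together. Just inside the threshold stood Rsph9 at 0.506 CPM with shRNA 2. Just outside stood Dnah12 at 0.476 CPM with shRNA 2, Dnah11 at 0.401 CPM in untransduced cells and Rsph6a at 0.384 CPM with shRNA 2.

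The deposited values were means over the 3 libraries of a group, from which the single libraries were recovered by arithmetic. Their totals ran from 30274847 to 47517427 reads, 1 read was worth 0.0210 to 0.0330 CPM, and a floor of 3 reads was 0.0631 to 0.0991 CPM. Sbk2 itself had 1.09, 1.00 and 1.13 CPM with shRNA 1 and 0.719, 0.620 and 0.681 CPM with shRNA 2, against 29.6, 24.8 and 26.9 CPM with ppluc and 42.6, 47.3 and 45.6 CPM in untransduced cells. Differences are given as log2 of (CPM + 0.5), with the standard error of the limma fit to all 12 libraries; the added 0.5 makes changes of low genes look smaller than they are. They were called at a Benjamini-Hochberg adjusted p under 0.05 over the 12493 genes tested, those with at least 0.5 CPM in at least 3 libraries. Of the 35 members 34 were tested, all except Rsph9. Whether each library had a culture of its own is not stated, so p-values rest on a spread between samples that may be technical. Because bulk RNA was measured, fewer cells of a type and less RNA per cell cannot be told apart.

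Most of the tested members were higher in cells with either Sbk2 shRNA than with ppluc, and the calls have to be read against a table in which most genes were called. With shRNA 1, 29 of the 34 tested members were called higher and 3 lower, with a median of 0.86. Of all genes tested, 54.7% were called higher and 18.7% lower, with a median of 0.26. With shRNA 2, 29 members were called higher and 3 lower, with a median of 1.47, while 65% of all genes were called higher and 21.1% lower, with a median of 0.50. For the mean of both shRNAs, 31 members were called higher and the other 3 were not called, with a median of 1.13, beside 64.4% higher, 18.7% lower and a median of 0.37 over all genes.

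The all-gene median was itself above 0, so the fit was repeated after trimmed-mean scaling, which brings it to about 0. With shRNA 1, 27 members were then called higher and 4 lower, with a median of 0.64, against 34.5% and 33% of all genes. With shRNA 2, 28 were called higher and 4 lower, with a median of 0.98, against 40.7% and 40.2% of all genes. For the mean of both shRNAs, 28 were called higher and 4 lower, with a median of 0.74, against 38.5% higher and 38.5% lower among all genes. The comparisons with ppluc share the ppluc libraries.

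The tested members include Cfap77, Cfap99 and Rsph1, which passed the filter only through Sbk2 shRNA libraries. The way these genes were selected favoured their higher calls, which are therefore no separate evidence. Among the 31 members with 0.5 CPM in at least 3 of the 6 ppluc and untransduced libraries, 26 were called higher and 3 lower with shRNA 1, with a median of 0.82. Of the 11788 genes that met the same condition, 55.5% were called higher and 19.7% lower. With shRNA 2, 26 of these 31 members were called higher and 3 lower, with a median of 1.39, beside 64% and 22.2% of all such genes.

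**Figure D1:**
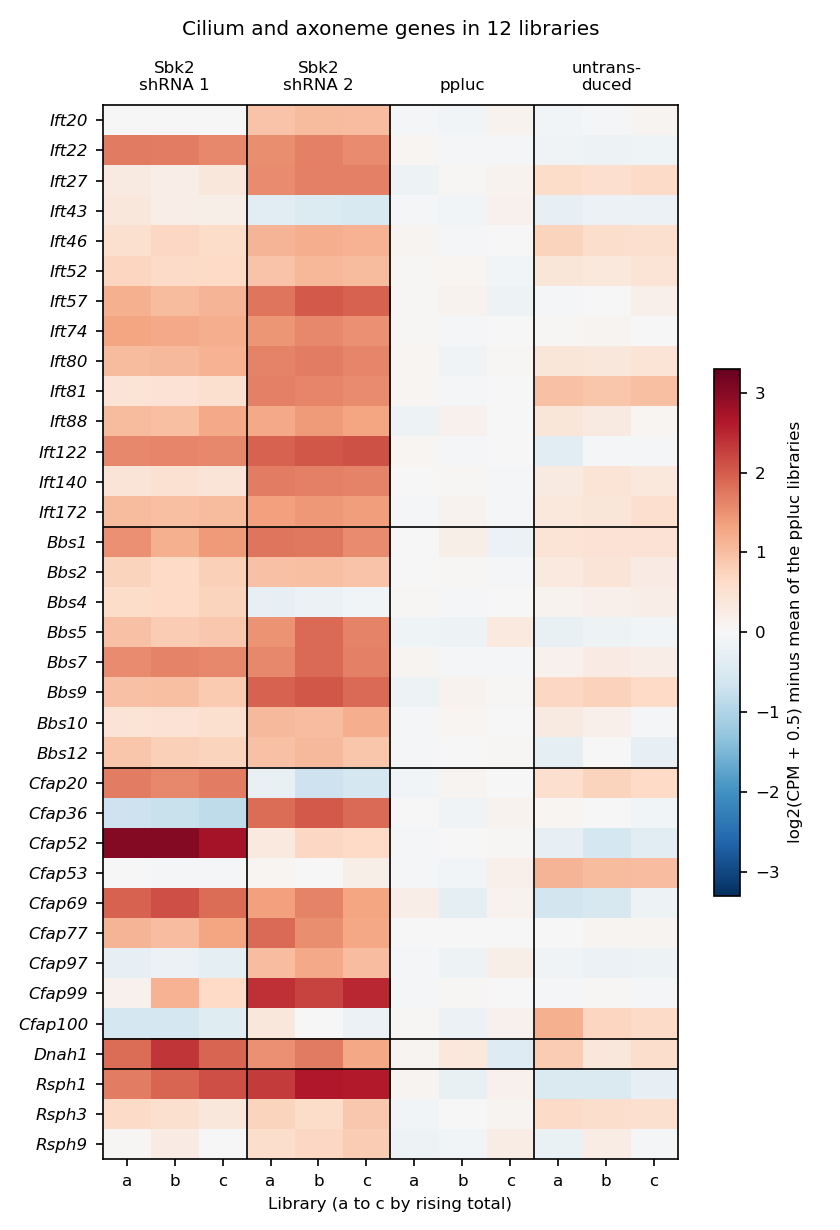
Levels of the 35 members in the 12 libraries, as log2(CPM + 0.5) minus the mean of the ppluc libraries, with red above and blue below ppluc. Columns are the libraries of the 4 groups and rows the genes by family. Most Ift and Bbs rows are red in all 6 Sbk2 shRNA libraries, Cfap52 is darkest with shRNA 1 (2.94 above ppluc), and Cfap20 and Cfap36 are red with one shRNA and blue with the other.

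Nearly all intraflagellar transport genes were higher with either Sbk2 shRNA. All 14 were tested. With shRNA 1, 13 were called higher, and with shRNA 2, 13 were called higher and 1 lower, with medians of 0.84 and 1.55. Of all genes tested, 54.7% were called higher with shRNA 1, and 65% higher and 21.1% lower with shRNA 2. The Ift exceptions were Ift20 with shRNA 1, which did not pass the test, and Ift43 with shRNA 2, which was lower. After trimmed-mean scaling 11 Ift genes were higher and 1 lower with shRNA 1, beside 34.5% and 33% of all genes. With shRNA 2, 13 were then higher and 1 lower, beside 40.7% and 40.2% of all genes. The highest mean of any Ift gene with a TPM was that of Ift43 with shRNA 1. It had 88.0 TPM (a level scaled for transcript length and library size) with shRNA 1, 50.5 TPM with shRNA 2, 66.3 TPM with ppluc and 63.4 TPM in untransduced cells. With shRNA 2 Ift20 was higher than Ift43, at 83.8 TPM. No TPM was used for Ift172, which the deposited table places on 2 loci.

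IFT-A is the complex that carries cargo inward and brings membrane proteins into the cilium, and 3 members encode parts of it. Ift122, a core subunit at chr4:147756553-147826997 in Rnor_6.0, had 73.5, 75.4 and 73.4 CPM with shRNA 1 and 96.0, 103 and 105 CPM with shRNA 2, against 25.5, 23.3 and 24.1 CPM with ppluc and 18.9, 23.6 and 23.1 CPM in untransduced cells. All 6 Sbk2 shRNA libraries lay above all 6 others. Relative to ppluc the difference was 1.59 ± 0.07 for shRNA 1 and 2.04 ± 0.07 for shRNA 2 (limma adjusted p = 2.1e-12 and 1.7e-14).

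Ift140, another core subunit, was called higher with both shRNAs. It had 32.3, 34.2 and 32.5 CPM with shRNA 1 and 79.1, 78.0 and 76.3 CPM with shRNA 2, against 24.2, 24.8 and 23.4 CPM with ppluc. The difference was 0.44 ± 0.06 with shRNA 1 and 1.67 ± 0.06 with shRNA 2, and the shRNAs differed by -1.22 ± 0.06, shRNA 1 minus shRNA 2 (limma adjusted p = 9.5e-13). Ift140 overlaps Tmem204 on the genome, and the way reads of overlapping genes were assigned is not known here.

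The third IFT-A gene, Ift43, encodes a small subunit and went the other way with shRNA 2. It had 51.3, 46.2 and 45.9 CPM with shRNA 1 and 31.1, 29.2 and 28.1 CPM with shRNA 2, against 38.5, 37.2 and 44.1 CPM with ppluc. The shRNA 2 libraries lay below all ppluc libraries and the shRNA 1 libraries above them. The difference was 0.26 ± 0.07 with shRNA 1 (limma adjusted p = 0.0026) and -0.43 ± 0.07 with shRNA 2 (limma adjusted p = 1.2e-05). After trimmed-mean scaling the first became -0.0042 and was not called, and the second was -0.95.

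The IFT-B core, the 7 genes Ift22, Ift27, Ift46, Ift52, Ift74, Ift81 and Ift88 among the members, belongs to the complex that carries tubulin and other cargo outward. All 7 were called higher with both shRNAs, by 0.30 to 1.67 with shRNA 1 and by 1.03 to 1.63 with shRNA 2. Of all genes tested, 54.7% were called higher with shRNA 1 and 65% with shRNA 2. After trimmed-mean scaling 6 of the 7 were called higher with shRNA 1 and 7 with shRNA 2, beside 34.5% and 40.7% of all genes. Ift22, a small GTPase-like subunit, had 20.3, 20.2 and 18.6 CPM with shRNA 1 and 18.0, 19.8 and 18.1 CPM with shRNA 2, against 6.18, 5.67 and 5.75 CPM with ppluc and 5.38, 5.15 and 5.24 CPM in untransduced cells. The libraries of both shRNAs overlapped, and their difference of 0.08 ± 0.08, shRNA 1 minus shRNA 2, did not pass (limma adjusted p = 0.38). After trimmed-mean scaling that difference was 0.33 and was called higher with shRNA 1 (limma adjusted p = 0.001).

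Ift81 and Ift74 encode partners that together bind tubulin. Ift81 had 41.5, 42.3 and 43.7 CPM with shRNA 1 and 96.8, 93.5 and 89.3 CPM with shRNA 2, against 31.3, 28.7 and 30.4 CPM with ppluc and 59.2, 57.3 and 60.2 CPM in untransduced cells. The shRNA 1 libraries lay between the ppluc and the untransduced libraries, and only the shRNA 2 libraries lay above both. Relative to ppluc it was higher by 0.49 ± 0.05 for shRNA 1 and 1.61 ± 0.05 for shRNA 2 (limma adjusted p = 1.2e-07 and 5.5e-15). Ift74 had 33.4 to 36.2 CPM with shRNA 1 and 40.4 to 43.8 CPM with shRNA 2, against 13.8 to 14.7 CPM with ppluc and 14.4 to 15.5 CPM in untransduced cells, and both control groups overlapped. Ift74 overlaps Lrrc19 and Mir872.

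Ift27, a small GTPase of the Rab type that helps the BBSome leave the cilium, had 7.07, 6.68 and 7.39 CPM with shRNA 1 and 17.5, 19.0 and 18.7 CPM with shRNA 2, against 4.96, 5.80 and 6.17 CPM with ppluc and 8.87, 8.56 and 8.95 CPM in untransduced cells. All shRNA 1 libraries of Ift27 were above ppluc and below untransduced cells. The difference of 0.30 ± 0.09 with shRNA 1 (limma adjusted p = 0.0081) was 0.06 and not called after trimmed-mean scaling, and was 0.22 with an adjusted p of 0.055 without ppluc library a. With shRNA 2 the difference was 1.63 ± 0.09, and 1.13 after scaling. Ift88, needed for cilium growth in mice, rose by 1.09 ± 0.11 with shRNA 1 and 1.32 ± 0.11 with shRNA 2. Ift46 and Ift52 rose by 0.61 and 0.67 with shRNA 1 and by 1.16 and 1.03 with shRNA 2.

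Of the 4 peripheral IFT-B genes, Ift57, Ift80 and Ift172 were called higher with both shRNAs. Ift57 had 29.4 to 32.1 CPM with shRNA 1 and 48.8 to 58.0 CPM with shRNA 2, against 12.4 to 15.3 CPM with ppluc (1.11 ± 0.09 and 1.91 ± 0.09). Ift80 had 60.3 to 64.6 CPM with shRNA 1 and 89.9 to 94.6 CPM with shRNA 2, against 26.8 to 30.4 CPM with ppluc (1.08 ± 0.06 and 1.64 ± 0.06). Ift172 rose by 1.02 ± 0.06 and 1.39 ± 0.06, and overlaps LOC103692570. The exception was Ift20, the subunit also found at the Golgi apparatus, with 33.1, 33.5 and 32.7 CPM with shRNA 1 and 64.5, 69.0 and 68.2 CPM with shRNA 2, against 32.4, 31.1 and 36.3 CPM with ppluc. With shRNA 1 the libraries lay inside the range of ppluc and with shRNA 2 above it. The difference was 1.01 ± 0.06 with shRNA 2 (limma adjusted p = 4.5e-11), while with shRNA 1 it did not pass as deposited and was -0.26 and called lower after trimmed-mean scaling.

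The Bbs genes fall into subunits of the BBSome and a pair of chaperonin-like genes, Bbs10 and Bbs12, whose products help assemble it. All 8 were called higher with shRNA 1, and 7 were called higher and 1 lower with shRNA 2, with medians of 0.86 and 1.38. Of all genes tested, 54.7% were called higher with shRNA 1, and 65% higher and 21.1% lower with shRNA 2. The Bbs counts were the same after trimmed-mean scaling, when 34.5% of all genes were called higher with shRNA 1 and 40.7% with shRNA 2. Bbs9 had 21.6, 22.0 and 20.2 CPM with shRNA 1 and 43.2, 46.6 and 41.1 CPM with shRNA 2, against 9.68, 11.8 and 11.3 CPM with ppluc and 17.9, 18.8 and 17.5 CPM in untransduced cells. The groups did not overlap and stood in the order shRNA 2, shRNA 1, untransduced, ppluc. Bbs9 exceeded ppluc by 0.93 ± 0.08 for shRNA 1 and by 1.95 ± 0.08 for shRNA 2 (limma adjusted p = 8.2e-09 and 1.2e-13), and per transcript length Bbs9 was the highest Bbs gene, at 53.8 TPM with shRNA 2 and 13.1 TPM with ppluc.

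Bbs7, which forms the BBSome core with Bbs2 and Bbs9, had 31.9, 33.8 and 32.5 CPM with shRNA 1 and 32.7, 39.8 and 34.2 CPM with shRNA 2, against 11.2, 10.2 and 10.3 CPM with ppluc and 11.7, 12.9 and 12.3 CPM in untransduced cells. It rose by 1.59 ± 0.08 with shRNA 1 and 1.70 ± 0.08 with shRNA 2, and the shRNAs differed by -0.11 ± 0.08, which did not pass (limma adjusted p = 0.19). Bbs7 overlaps Exosc9. Bbs1, whose product contacts the GTPase that recruits the BBSome to membranes, had 22.9 to 29.1 CPM with shRNA 1 and 30.0 to 34.3 CPM with shRNA 2, against 8.48 to 11.3 CPM with ppluc. Its rise was 1.37 ± 0.10 with shRNA 1 and 1.68 ± 0.10 with shRNA 2.

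Bbs5, which binds phosphoinositides, rose by 0.90 ± 0.13 and 1.67 ± 0.13, and Bbs2 by 0.73 ± 0.06 and 0.97 ± 0.06, with shRNA 1 and shRNA 2. Of the chaperonin-like genes, Bbs10 rose by 0.49 ± 0.09 and 1.09 ± 0.09 and Bbs12 by 0.82 ± 0.11 and 0.98 ± 0.11, with all 6 Sbk2 shRNA libraries of either gene above all ppluc libraries. The BBSome subunit called lower with shRNA 2 was Bbs4, with 21.2, 22.1 and 23.1 CPM with shRNA 1 and 11.3, 12.0 and 12.9 CPM with shRNA 2, against 14.1, 13.3 and 14.0 CPM with ppluc. Libraries with shRNA 1 lay above and libraries with shRNA 2 below all ppluc libraries. The difference was 0.66 ± 0.08 with shRNA 1 (limma adjusted p = 3.6e-07) and -0.19 ± 0.08 with shRNA 2 (limma adjusted p = 0.027). The second was -0.15, -0.19, -0.17 and -0.18, with an adjusted p of 0.099, 0.051, 0.071 and 0.067, without shRNA 2 library a or b or ppluc library a or c, and -0.69 after trimmed-mean scaling.

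**Figure D2:**
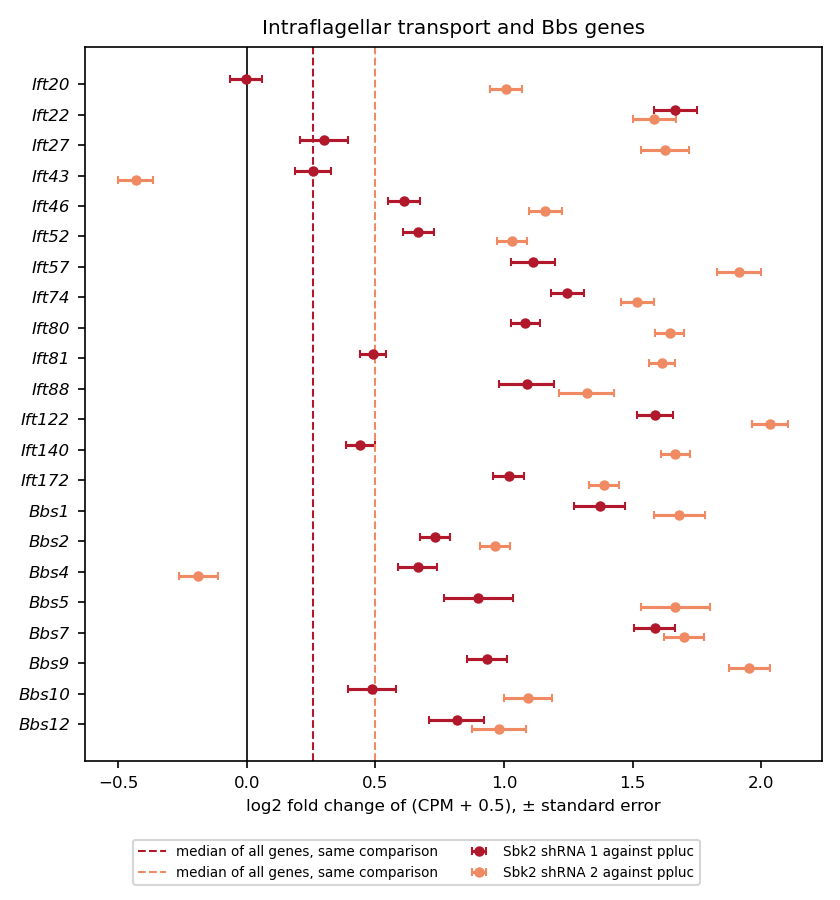
Log2 fold change of (CPM + 0.5) of the 14 Ift and 8 Bbs genes against ppluc, with the standard error of the limma fit as bars, for Sbk2 shRNA 1 (dark red) and shRNA 2 (orange). Dashed lines give the median of all 12493 genes in the same comparison, 0.26 and 0.50. Most points lie to the right of their dashed line, and Ift43 and Bbs4 with shRNA 2 lie left of 0.

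Promoters were compared because most Ift and Bbs genes moved together. RefSeq promoters of the GRCr8 assembly, a later build than that of the deposited loci, matched 28 of the 35 members by symbol. Regulatory factor X proteins, which control ciliary genes in animals, bind a motif called the X-box, and 3 letter patterns were searched on both strands of the 250 bases before each start: the 5 letters GTTGC, the 6 letters GTTNCC, and the longer pattern GTTNCCNNNGNAAC. GTTGC was found in 13 of 28 member promoters (46.4%), beside 30.8% of promoters of genes tested and 29.6% of all promoters. GTTNCC was found in 18 of 28 (64.3%), beside 41% and 39.8%, and one kind of match can overlap the other. The longer pattern was found in 0 of 28, beside 0.729% and 0.605%. These matches describe letters and name no bound factor.

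The promoters that follow were chosen for their matches to GTTGC. They are those of Ift122 (chr4:150577392-150577641, plus strand), Ift81 (chr12:39618372-39618621, plus strand), Bbs7 (chr2:121402474-121402723, minus strand) and Bbs1 (chr1:211633469-211633718, minus strand), the members whose GTTGC lies nearest the start, all called higher with each shRNA, and of Cfap20 (chr19:9614728-9614977, plus strand), which was higher with shRNA 1 and lower with shRNA 2. Bbs9 (chr8:29289758-29290007, plus strand) is shown as a member that was also called higher with each shRNA and has no match to GTTGC. Bbs2, Cfap77, Cfap99, Ift22, Ift46, Ift52, Ift140, Ift172 and Rsph3 likewise have no match to GTTGC. All printed promoters are shown 5′ to 3′ on the strand of the gene, and capitals mark GTTGC or its reverse complement GCAAC. Matches to GTTNCC are not marked, and promoters without GTTGC can hold them. The Bbs9 promoter has GGAAAC, a match to GTTNCC on the other strand. In Ift122, Ift81, Bbs7 and Bbs1 a match to GTTGC lies within 14 bases of the start. In Cfap20 the match to GTTGC lies 150 to 146 bases before it.
Ift122: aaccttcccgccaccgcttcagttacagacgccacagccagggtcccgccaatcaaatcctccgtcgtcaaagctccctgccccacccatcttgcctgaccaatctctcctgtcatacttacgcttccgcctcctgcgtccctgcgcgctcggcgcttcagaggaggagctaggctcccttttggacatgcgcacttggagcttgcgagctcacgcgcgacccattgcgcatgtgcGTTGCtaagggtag
Ift81: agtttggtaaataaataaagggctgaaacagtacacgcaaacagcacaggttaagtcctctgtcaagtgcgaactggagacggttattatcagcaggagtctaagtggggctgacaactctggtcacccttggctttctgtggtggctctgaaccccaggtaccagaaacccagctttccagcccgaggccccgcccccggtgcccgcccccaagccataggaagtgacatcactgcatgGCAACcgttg
Bbs7: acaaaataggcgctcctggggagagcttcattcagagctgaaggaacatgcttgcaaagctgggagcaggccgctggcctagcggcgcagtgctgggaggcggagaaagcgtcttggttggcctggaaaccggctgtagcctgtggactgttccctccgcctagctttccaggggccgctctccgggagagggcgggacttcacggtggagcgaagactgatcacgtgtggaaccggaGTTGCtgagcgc
Bbs1: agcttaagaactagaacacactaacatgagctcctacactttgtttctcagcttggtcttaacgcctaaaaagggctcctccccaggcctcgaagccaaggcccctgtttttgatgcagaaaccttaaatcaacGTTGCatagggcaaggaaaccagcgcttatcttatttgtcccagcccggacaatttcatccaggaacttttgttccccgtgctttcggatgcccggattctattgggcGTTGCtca
Cfap20: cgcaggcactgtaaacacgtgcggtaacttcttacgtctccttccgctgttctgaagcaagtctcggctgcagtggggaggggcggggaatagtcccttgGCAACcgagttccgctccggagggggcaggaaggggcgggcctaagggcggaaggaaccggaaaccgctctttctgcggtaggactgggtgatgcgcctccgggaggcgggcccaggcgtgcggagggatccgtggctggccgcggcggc
Bbs9: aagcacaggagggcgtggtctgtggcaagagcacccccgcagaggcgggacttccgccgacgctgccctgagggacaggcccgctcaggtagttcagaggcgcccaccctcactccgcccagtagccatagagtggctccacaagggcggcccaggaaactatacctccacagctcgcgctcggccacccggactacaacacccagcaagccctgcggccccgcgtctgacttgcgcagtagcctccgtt

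Cfap52, at chr10:54470835-54512169 in Rnor_6.0, encodes a WD-repeat protein of the inner side of the doublet microtubules of motile cilia. It had 10.9, 10.8 and 8.84 CPM with shRNA 1 and 1.24, 1.73 and 1.69 CPM with shRNA 2, against 0.835, 0.899 and 0.926 CPM with ppluc and 0.648, 0.430 and 0.599 CPM in untransduced cells. The shRNA 1 libraries stood far above all others, the shRNA 2 libraries slightly above ppluc, and ppluc slightly above untransduced cells, with no overlap between groups.

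The difference of Cfap52 from ppluc was 2.94 ± 0.14 with shRNA 1 (limma adjusted p = 5.9e-12). With shRNA 2 it was 0.56 ± 0.14 (limma adjusted p = 0.0014), and 0.19 and not called after trimmed-mean scaling. The shRNAs differed by 2.38 ± 0.14 (limma adjusted p = 3.5e-11). Cfap52 had a deposited mean of 5.83 TPM with shRNA 1, 0.845 TPM with shRNA 2, 0.441 TPM with ppluc and 0.313 TPM in untransduced cells. No annotated gene overlaps Cfap52, and its nearest neighbours are Stx8, 814 bases after it, and Usp43, 2879 bases before it. Stx8 had 16.6 CPM with shRNA 1 and 11.0 CPM with shRNA 2, against 12.7 CPM with ppluc, and Usp43 had 21.7 and 5.70 CPM, against 14.5 CPM.

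Across the 12 libraries the genes whose log2(CPM + 0.5) followed Cfap52 most closely were Sae1, Plekhb2, Mtmr3, Wdr11 and Arhgap19, with Pearson correlations of 0.992, 0.990, 0.990, 0.989 and 0.987 among 12492 other genes. This is a description: the 12 libraries fall into 4 groups, and libraries of a group share their treatment. Sae1 had a mean of 342 CPM with shRNA 1 and 185 CPM with shRNA 2, against 177 CPM with ppluc and 150.4 CPM in untransduced cells. None of the 5 is a member of the families.

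Cfap69, known from sperm tails and olfactory cilia in mice, had 10.6, 12.1 and 9.95 CPM with shRNA 1 and 6.86, 8.52 and 6.70 CPM with shRNA 2, against 2.87, 1.80 and 2.63 CPM with ppluc and 1.39, 1.49 and 2.08 CPM in untransduced cells. All Sbk2 shRNA libraries lay above all others. Its rise was 1.97 ± 0.16 for shRNA 1 (limma adjusted p = 3.4e-09) and 1.43 ± 0.16 for shRNA 2 (limma adjusted p = 1e-07). Dnah1, an inner-arm dynein heavy chain and the only axonemal dynein heavy chain among the members, had 4.39, 6.47 and 4.65 CPM with shRNA 1 and 3.36, 3.97 and 2.78 CPM with shRNA 2, against 0.939, 1.23 and 0.505 CPM with ppluc and 1.94, 1.26 and 1.54 CPM in untransduced cells. Its Sbk2 shRNA libraries too lay above all others, by 2.04 ± 0.20 with shRNA 1 and 1.50 ± 0.20 with shRNA 2 against ppluc. The other 10 Dnah rows had at most 70 reads over the 12 libraries, and Dnah9 had 0.

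Of the radial spoke genes, Rsph3, a stalk protein gene, was measured in every group, with 5.85, 5.40 and 4.87 CPM with shRNA 1 and 6.34, 5.79 and 7.13 CPM with shRNA 2, against 3.34, 3.67 and 3.87 CPM with ppluc and 5.89, 5.61 and 5.47 CPM in untransduced cells. Both shRNA groups lay above ppluc (0.51 ± 0.11 and 0.74 ± 0.11) and overlapped the untransduced libraries. Rsph1, a spoke head gene, had 1.88, 2.28 and 2.71 CPM with shRNA 1 and 3.17, 4.15 and 4.06 CPM with shRNA 2, against 0.287, 0.128 and 0.316 CPM with ppluc and 0.0324, 0.0286 and 0.114 CPM in untransduced cells. That was 242 reads with shRNA 1 and 380 reads with shRNA 2, against 31 reads with ppluc. The ratio of pooled CPM was 9.38 (exact 95% interval for counting error 6.44 to 14.1) with shRNA 1 and 15.4 (10.6 to 22.9) with shRNA 2. Rsph1 reached 0.5 CPM only in the Sbk2 shRNA groups, so its higher level there is part of how it was chosen. Rsph9, another head gene, had 17 and 51 reads, against 16 reads with ppluc, did not pass the filter for testing, and overlaps Mrps18a.

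**Figure D3:**
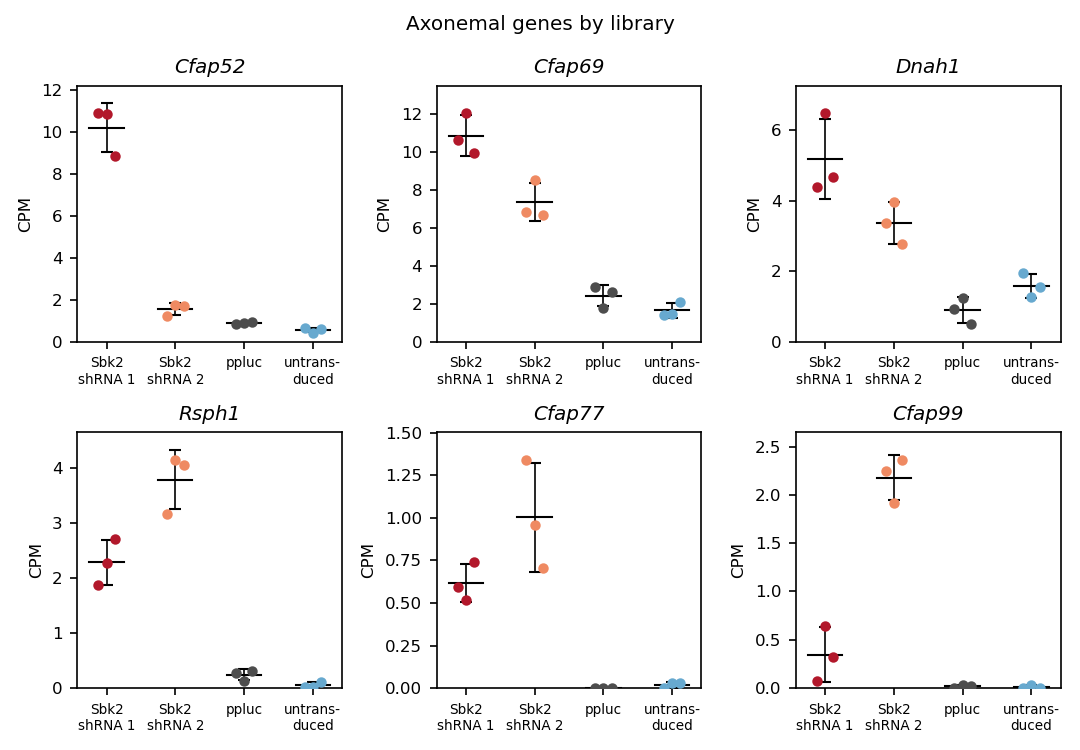
CPM of 6 axonemal genes in each of the 12 libraries (points), with the group mean (long line) and SD over 3 libraries (bars), for Sbk2 shRNA 1, Sbk2 shRNA 2, ppluc and untransduced cells. Cfap52 stands high with shRNA 1 (8.84 to 10.9 CPM), Cfap69 and Dnah1 with both shRNAs, and Cfap99 with shRNA 2 (1.92 to 2.37 CPM).

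Cfap77 and Cfap99 were near 0 outside the Sbk2 shRNA groups. Both reached 0.5 CPM only in those groups, so their higher level there is part of how they were chosen. Cfap77, a doublet microtubule protein known from Chlamydomonas as FAP77, had 0.595, 0.516 and 0.739 CPM with shRNA 1 and 1.34, 0.960 and 0.708 CPM with shRNA 2, against 0 reads in the 3 ppluc libraries and 2 reads in the untransduced libraries. Set against a floor of 3 reads over the ppluc group, its level was 26.0-fold with shRNA 1 and 40.9-fold with shRNA 2. The exact 95% interval of the ratio of pooled CPM, for counting error only, began at 20.6 with shRNA 1 and 32.7 with shRNA 2. Cfap99 had 0.0661, 0.638 and 0.320 CPM with shRNA 1 and 2.25, 1.92 and 2.37 CPM with shRNA 2, against 0, 0.0257 and 0.0210 CPM with ppluc.

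The shRNA 1 libraries of Cfap99 were spread widely and the shRNA 2 libraries closely. With 36 and 218 reads, against 2 reads with ppluc, the ratio of pooled CPM was 21.6 (exact 95% interval 5.57 to 185) with shRNA 1 and 137 (37.3 to 1134) with shRNA 2. The intervals cover counting error only and leave out the spread between libraries, which held 2, 21 and 13 reads with shRNA 1. Cfap99 passed the filter only through Sbk2 shRNA libraries, so its higher level there is part of how it was chosen. The call with shRNA 1 (fitted difference 0.65 ± 0.20) became 0.40 with an adjusted p of 0.065 without shRNA 1 library b. Cfap99 lies 332 bases from Zfyve28, which had 4.32 CPM with shRNA 1 and 20.3 CPM with shRNA 2, against 2.56 CPM with ppluc. Whether reads of that gene were counted for Cfap99 was not tested; the deposited mean TPM of Cfap99 were 0.0392 with shRNA 1 and 0.699 with shRNA 2, and it was listed at 0 TPM with ppluc.

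Cfap100 and Cfap53 were called higher with neither shRNA. Cfap100, known from Chlamydomonas as a subunit of a complex that regulates inner-arm dyneins, had 0.826, 0.820 and 0.985 CPM with shRNA 1 and 2.06, 1.49 and 1.23 CPM with shRNA 2, against 1.51, 1.23 and 1.68 CPM with ppluc and 3.92, 2.69 and 2.54 CPM in untransduced cells. It was lower with shRNA 1 by a difference of -0.52 ± 0.17 (limma adjusted p = 0.012, and 0.053 at a difference of -0.44 without ppluc library c). Cfap53, a doublet protein needed for left-right patterning, had 2.41, 2.31 and 2.24 CPM with shRNA 1 and 2.48, 2.35 and 2.78 CPM with shRNA 2, against 2.24, 2.18 and 2.71 CPM with ppluc and 5.76, 5.44 and 5.33 CPM in untransduced cells. All 9 libraries with a vector lay close together and below the untransduced libraries. Its difference to ppluc with shRNA 2 was 0.08 ± 0.12 and not called as deposited, and -0.36 and called lower after trimmed-mean scaling.

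The remaining Cfap members had opposite calls with the 2 shRNAs. Cfap20, a doublet microtubule protein at chr19:10024947-10038784 in Rnor_6.0, had 78.1, 72.7 and 78.3 CPM with shRNA 1 and 20.1, 14.8 and 15.8 CPM with shRNA 2, against 22.4, 25.7 and 23.8 CPM with ppluc and 35.2, 40.4 and 38.2 CPM in untransduced cells. It was above both control groups in all shRNA 1 libraries and below both in all shRNA 2 libraries. Cfap20 had the highest mean of the Cfap genes, 107 TPM with shRNA 1, against 31.0 TPM with ppluc. Its difference to ppluc came to 1.65 ± 0.09 for shRNA 1 and -0.50 ± 0.09 for shRNA 2 (limma adjusted p = 2.6e-11 and 4.5e-05). The shRNAs differed by 2.15 ± 0.09 (limma adjusted p = 2.4e-13).

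Cfap36, at chr14:113618964-113644779 in Rnor_6.0, whose product binds the ciliary GTPase Arl3, had 17.9, 17.3 and 16.1 CPM with shRNA 1 and 105, 119.7 and 108 CPM with shRNA 2, against 29.3, 26.6 and 31.3 CPM with ppluc and 30.6, 29.5 and 27.4 CPM in untransduced cells. Here shRNA 1 lay below and shRNA 2 above both control groups, the reverse of Cfap20. Its neighbour Ppp4r3b, 826 bases before it, had 72.4 CPM with shRNA 1 and 148 CPM with shRNA 2, against 91.6 CPM with ppluc. The differences to ppluc were -0.75 ± 0.07 for shRNA 1 and 1.91 ± 0.07 for shRNA 2 (limma adjusted p = 4e-08 and 4.4e-14). Cfap97 had 10.8, 11.5 and 10.4 CPM with shRNA 1 and 27.1, 32.1 and 27.6 CPM with shRNA 2, against 12.9, 11.8 and 15.2 CPM with ppluc. Its libraries with shRNA 1 lay just below ppluc (-0.27 ± 0.09, limma adjusted p = 0.015) and those with shRNA 2 well above it (1.09 ± 0.09). The call with shRNA 1 was lost without ppluc library c (-0.17, adjusted p 0.11) or shRNA 1 library c (-0.24, adjusted p 0.057).

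**Figure D4:**
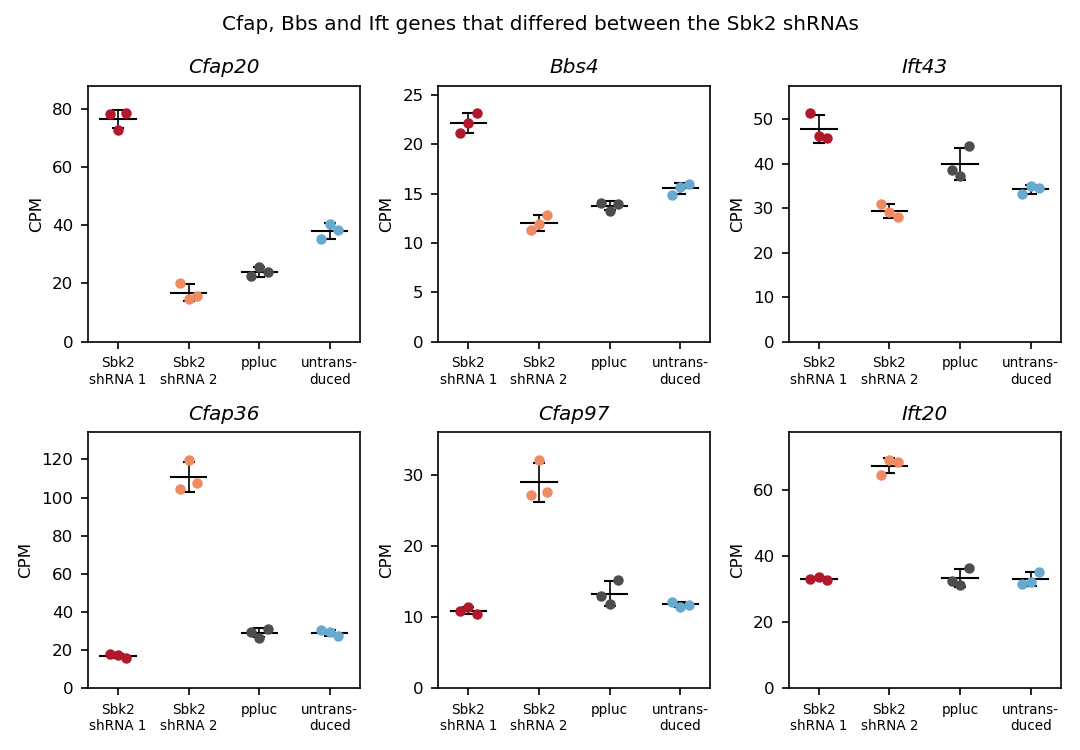
CPM in each of the 12 libraries (points), with the group mean (long line) and SD over 3 libraries (bars), of Cfap20, Bbs4 and Ift43, which were highest with Sbk2 shRNA 1, and of Cfap36, Cfap97 and Ift20, which were highest with Sbk2 shRNA 2. In the top row the shRNA 2 points lie below the ppluc points, and in the bottom row the shRNA 1 points lie below or within them.

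Set directly against each other, the shRNAs gave 6 members called higher with shRNA 1 than with shRNA 2 and 22 called lower, with a median of -0.39. Among all genes 27.7% were called higher and 53.2% lower, with a median of -0.25. After trimmed-mean scaling 7 members were called higher and 15 lower, with a median of -0.15, beside 38.7% and 39% of all genes. The 6 higher members as deposited were Cfap52, Cfap20, Bbs4, Ift43, Cfap69 and Dnah1. Of these, Dnah1 (0.55 ± 0.20, limma adjusted p = 0.017) was 0.39 with an adjusted p of 0.10 without shRNA 1 library b and 0.43 with 0.081 without shRNA 2 library c. The lower members with the smallest p were Cfap36 (-2.66 ± 0.07), Ift81 (-1.12 ± 0.05), Ift140 (-1.22 ± 0.06), Ift20 (-1.01 ± 0.06), Cfap97 (-1.36 ± 0.09) and Ift27 (-1.33 ± 0.09), with limma adjusted p between 9.5e-16 and 3.7e-10.

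The control vector alone was set against untransduced cells as well. With ppluc 4 members were called higher and 16 lower, with a median of -0.19, while 24.8% of all genes were called higher and 32.2% lower, with a median of -0.04. After trimmed-mean scaling 5 were called higher and 15 lower, with a median of -0.15, beside 28.8% and 28.3% of all genes. Cfap53 was lower by -1.07 ± 0.12 (limma adjusted p = 5.8e-07), and Ift81 by -0.96 ± 0.05 (limma adjusted p = 7.8e-11). Cfap100 (-0.83 ± 0.17), Bbs9 (-0.70 ± 0.08), Cfap20 (-0.65 ± 0.09), Ift46 (-0.61 ± 0.06) and Ift27 (-0.60 ± 0.09) were lower too. The 4 higher calls, Cfap52 (0.39 ± 0.14), Cfap69 (0.44 ± 0.16), Rsph1 (0.41 ± 0.16) and Ift43 (0.22 ± 0.07), had limma adjusted p of 0.025, 0.023, 0.04 and 0.012, and all 4 calls were lost without ppluc library c, at adjusted p of 0.066, 0.080, 0.13 and 0.089. Below the threshold, Dnah11, an outer-arm dynein heavy chain gene, had 1 read with shRNA 1, 1 with shRNA 2 and 1 with ppluc, against 39 reads in untransduced cells. Those 39 reads were 23, 11 and 5 in libraries a, b and c, and Dnah11 overlaps Cdca7l.

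Set against untransduced cells in place of ppluc, and over the 31 members with 0.5 CPM in at least 3 control libraries, 21 had all shRNA 1 libraries above all untransduced libraries and 5 had all of them below. Of all 11788 genes that passed this same filter, 53.7% lay above and 27% below. With shRNA 2, 25 of the 31 members lay above and 5 below, beside 61.4% and 24.2% of all such genes.

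Other ciliary genes were described from 11 lists written from general knowledge; pairs of values for a gene are its differences to ppluc with shRNA 1 and with shRNA 2, and counts are of genes called, to be read against the background shares above. The 4 IFT-A partners outside the Ift names were higher in 4 cases with shRNA 1, and in 3 with shRNA 2, with 1 lower. Wdr19 (1.44 and 2.19), Wdr35 (1.08 and 1.62) and Ttc21b (0.73 and 0.91), subunits of IFT-A, were higher with both. Tulp3, the adapter that links IFT-A to membrane receptors, had 44.3, 45.6 and 44.2 CPM with shRNA 1 and 12.5, 10.3 and 12.2 CPM with shRNA 2, against 25.8, 26.1 and 28.8 CPM with ppluc. Its shRNA 1 libraries lay above and its shRNA 2 libraries below ppluc, as for Ift43.

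Of 6 IFT-B partners 5 were higher with shRNA 1 and 6 with shRNA 2, among them Ttc30b (1.05 and 2.02), Cluap1 (1.07 and 1.90) and Ttc30a1 (0.90 and 2.38); Ttc30b and Ttc30a1 are close paralogs whose reads may have been split. Of 10 genes of the ciliary motors, which pull the trains, 10 were higher with shRNA 1 and 9 with shRNA 2, with the kinesin-2 gene Kif3a at 0.42 and 1.72 and the dynein-2 genes Dync2li1 at 1.64 and 2.99 and Dync2h1 at 0.70 and 2.16. Of 5 BBSome partners 4 were higher and 1 lower with shRNA 1 and 5 were higher with shRNA 2. Arl6, the GTPase that recruits the BBSome, was at 1.59 and 2.29, Lztfl1, its negative regulator, at 1.30 and 1.22, and the subunit gene Ttc8 at 0.65 and 1.90.

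The transition zone, the gate at the base of the cilium, had 23 genes tested, of which 21 were higher with shRNA 1 and 22 higher and 1 lower with shRNA 2, with medians of 0.87 and 1.34. Tmem107 had 5.52, 6.25 and 7.07 CPM with shRNA 1 and 12.7, 15.8 and 13.4 CPM with shRNA 2, against 0.548, 0.539 and 0.926 CPM with ppluc. Nphp4 was at 1.74 and 2.36, and Anks6, of the inversin compartment, at 0.81 and 1.82. Of 24 genes of centriole appendages and of cilium assembly or disassembly, 17 were higher and 5 lower with shRNA 1, and 21 higher and 3 lower with shRNA 2. Kif24, Nek2 and Plk1 among them passed the filter only through Sbk2 shRNA libraries; of the other 21, 14 were higher and 5 lower with shRNA 1, and 18 higher and 3 lower with shRNA 2. Odf2, of the mother centriole, and Ehd3 were higher (0.98 and 1.32; 1.42 and 2.54), and Ehd1, like Ehd3 a membrane-shaping gene of early cilium assembly, was lower (-0.62 and -0.75).

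Of 13 genes of the ciliary membrane and its cargo, 9 were higher and 2 lower with shRNA 1 and 9 higher and 3 lower with shRNA 2. Rpgr was at 1.50 and 1.69 and the GTPase gene Arl13b at 0.79 and 1.24. Tub, a relative of Tulp3, had 12.9, 14.4 and 13.6 CPM with shRNA 1 and 6.93, 6.47 and 4.57 CPM with shRNA 2, against 36.2, 37.7 and 41.8 CPM with ppluc and 12.9, 14.7 and 14.5 CPM in untransduced cells. The ppluc libraries of Tub lay far above all others.

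The Hedgehog pathway, which signals through primary cilia in vertebrates, was measured through 8 of its 15 listed genes. With shRNA 1, 5 were higher and 3 not called, and with shRNA 2, 4 were higher and 3 lower. Without Dhh, 4 of 7 were higher with shRNA 1, and 3 were higher and 3 lower with shRNA 2. Of all genes tested, 54.7% were called higher with shRNA 1, and 65% higher and 21.1% lower with shRNA 2. Kif7, a kinesin of the cilium tip, was at 1.04 and 1.27, the receptor and target gene Ptch1 at 0.85 and 1.30, and the ligand gene Dhh at 0.75 and 2.22 from at most 128 reads in a library, and Dhh passed the filter only through Sbk2 shRNA libraries. Among the genes below the filter were the ligand genes Shh and Ihh and the transcription factor genes Gli1, Gli2 and Gli3.

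Of 9 regulators of ciliary genes 7 were higher and 2 lower with shRNA 1, and 9 were higher with shRNA 2. Their medians were 0.36 and 0.79, beside 0.26 and 0.50 over all genes. After trimmed-mean scaling 4 were higher and 2 lower with shRNA 1 (median 0.09), beside 34.5% and 33% of all genes. With shRNA 2, 5 were then higher and 0 lower (median 0.28), beside 40.7% and 40.2% of all genes. E2f5 was at 1.44 and 2.01, and Rfx1 at 0.93 and 0.83. Rfx7 was at -0.10 and 1.15. Foxn4, Rfx4, Mcidas, Gmnc, Ccno, Myb and Tp73, also on this list, were below the filter and not tested. Foxj1 was not analysed here.

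Of the lists of parts of motile cilia, 16 of 23 genes of axonemal dynein light and intermediate chains, docking and assembly were tested, with 12 higher with shRNA 1 and 15 higher and 1 lower with shRNA 2. Of these 16, Ccdc103, Ccdc151, Dnaaf1, Dnaaf3, Dyx1c1, Spag1 and Ttc25 passed the filter only through Sbk2 shRNA libraries; among the other 9, 7 were higher with shRNA 1, and 8 were higher and 1 lower with shRNA 2. Dnaaf3, a dynein assembly factor gene, had 5.95, 5.65 and 4.18 CPM with shRNA 1 and 5.52, 8.49 and 8.44 CPM with shRNA 2, against 0.574, 0.411 and 0.610 CPM with ppluc. The light chain genes Dnal4 and Dnal1 were at 0.92 and 1.55 and at 1.02 and 1.07. Only 10 of 28 genes of the nexin-dynein regulatory complex, rulers and central pair were tested, with 6 higher and 1 lower with shRNA 1 and 8 higher with shRNA 2. Of these 10, Ccdc39, Ccdc40, Enkur, Iqcg, Nme5 and Ropn1l passed the filter only through Sbk2 shRNA libraries; among the other 4, 3 were higher and 1 lower with shRNA 1, and 2 were higher with shRNA 2 (1 higher and 2 lower after trimmed-mean scaling). Enkur, a doublet protein gene, had 9.28, 9.47 and 10.6 CPM with shRNA 1 and 2.68, 4.68 and 4.41 CPM with shRNA 2, against 0.470, 0.128 and 0.231 CPM with ppluc and 0.0648, 0.258 and 0.342 CPM in untransduced cells. Like Cfap52 it was higher with shRNA 1 than with shRNA 2 (1.25 ± 0.20, limma adjusted p = 1.7e-05). Gas8 was at 1.16 and 2.14 and Ccdc65, like Gas8 a gene of the regulatory complex, at 1.31 and 0.60, the second 0.10 and not called after trimmed-mean scaling.

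After trimmed-mean scaling, among all tested genes of a list, more were called higher than lower in each list with shRNA 1, and with shRNA 2 in each list except the ciliary membrane and Hedgehog lists. Of all genes tested, 34.5% were then higher and 33% lower with shRNA 1, and 40.7% higher and 40.2% lower with shRNA 2. These lists include genes that passed the filter only through Sbk2 shRNA libraries. Without such genes the list of the nexin-dynein regulatory complex was a further exception with shRNA 2, with 1 higher and 2 lower of 4. Transition zone genes were higher in 19 of 23 cases with shRNA 1, and higher in 19 and lower in 2 with shRNA 2. Motor genes were higher in 9 of 10 cases with shRNA 1, and higher in 8 and lower in 1 with shRNA 2. Of the 13 membrane genes, 6 were then higher and 4 lower with shRNA 1, and 4 higher and 6 lower with shRNA 2. Of the 8 Hedgehog genes, 4 were higher and 2 lower with shRNA 1, and 4 higher and 4 lower with shRNA 2. Without Dhh, 3 of 7 were higher and 2 lower with shRNA 1, and 3 higher and 4 lower with shRNA 2. Of the 24 centriole and assembly genes, 13 were higher and 5 lower with shRNA 1, and 16 higher and 4 lower with shRNA 2. Of the 21 without Kif24, Nek2 and Plk1, 10 were higher and 5 lower with shRNA 1, and 13 higher and 4 lower with shRNA 2.

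**Figure D5:**
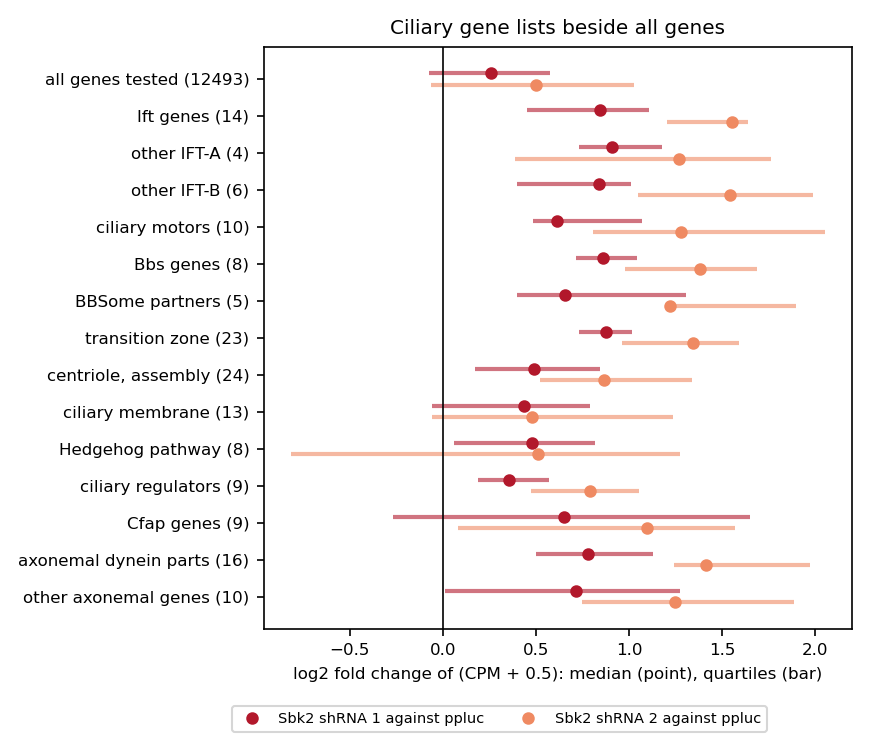
Median (point) and quartiles (bar) of the log2 fold change of (CPM + 0.5) against ppluc for all genes tested, for the Ift, Bbs and Cfap members and for the 11 lists, with the number of genes tested in parentheses, for Sbk2 shRNA 1 (dark red) and shRNA 2 (orange). The medians of all genes are 0.26 and 0.50, and those of the transition zone 0.87 and 1.34. The Cfap members, the centriole and Hedgehog lists and the 2 lists of axonemal parts include genes that passed the filter only through Sbk2 shRNA libraries.

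Markers of other cells were read beside these values. Of 10 listed markers of motile ciliated cells 9 were in the files and 1, Cfap52 itself, passed the filter, while Pifo, Sntn and Mcidas had 0 reads. The other 8 together reached 0.213 to 0.345 CPM with shRNA 1 and 0.490 to 1.33 CPM with shRNA 2, against 0.103 to 0.168 CPM with ppluc and 0.0573 to 0.324 CPM in untransduced cells. The 6 atrial myocyte markers summed to 26230 to 29851 CPM with shRNA 1 and 15466 to 20529 CPM with shRNA 2, against 45518 to 52383 CPM with ppluc and 38839 to 41509 CPM in untransduced cells. The fibroblast markers summed to 24.6 to 28.6 CPM and 14.6 to 20.2 CPM, against 115.0 to 149 CPM with ppluc and 76.4 to 87.7 CPM in untransduced cells, with Lum and Tcf21 at 0 reads. Col1a1 carried almost all of that sum, at a mean of 27.0 CPM with shRNA 1 and 17.5 CPM with shRNA 2, against 134 CPM with ppluc, while Pdgfra had at most 0.209 CPM and Dcn at most 0.0157 CPM in any group. The endothelial markers summed to 209 to 225 CPM and 56.4 to 97.8 CPM, against 142 to 154 CPM and 130.0 to 152 CPM, with Cdh5 and Emcn at 0 reads, and Kdr carried almost all of it, at a mean of 213 and 77.6 CPM, against 146 CPM with ppluc. The macrophage markers stayed at or under 0.261 CPM in every library, with Ptprc, Adgre1 and C1qa at 0 reads. The part of these sums in the results for the cilium genes was not tested.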

How the data were processed

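The deposited CPM and TPM values are means that the authors took over the 3 libraries of each group. The submitters' processing notes name Rnor_6.0 and DESeq2; the sources used here give no aligner, counting tool, strand setting or rule for shared reads. Libraries were polyA-selected and strand-marking, per the labels' protocols. The deposited loci give positions in Rnor_6.0, and 1 was added to their starts.

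Single libraries were recovered as the whole read counts whose CPM mean returns the stored digits. For 99.7 to 99.8% of features in each group exactly one set of counts fitted, every member included, and 0 of 3000 shifted control values per group gave any. Where several sets fitted within the usual spread, the set with the widest spread was kept. Recovered reads did not sum exactly to the library totals. The largest gaps were in untransduced library b (34243384 against 34919366) and library c (35860882 against 35082868). The letters a to c order libraries by total. Within groups, pairs of libraries correlated at 0.995 to 0.997 on the log2 scale and differed beyond sampling noise (mean chi-square per gene of 6.24 to 94.6).

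The log2(CPM + 0.5) values were fitted with limma 3.58.1 in R 4.3.3, with 1 mean per group, a variance trend and Benjamini-Hochberg adjustment over 12493 genes, for 5 comparisons. The steps were tested on simulated data. Trimmed-mean and median-of-ratios scaling, pseudocounts of 0.1 and 1, no filter, voom weights and leaving out each library were the alternatives, with a filter on the control libraries alone added after seeing the data. Other steps used pandas 2.3.3, numpy 2.4.6, matplotlib 3.10.9 and scipy 1.17.1 under Python 3.11.15. Intervals of ratios are exact binomial ones and cover counting error only. The members and gene lists were chosen with earlier results of these data known. The rule for named genes took Cfap52, Sbk2, up to 6 members with the smallest p per comparison and direction, the highest member of each family, the members next to the threshold, up to 3 genes with the smallest p of each list and the 5 genes most like Cfap52. The text goes past this rule for members and for a few list genes (Tulp3 and the neighbours of Cfap52 and Cfap99), chosen after their values were seen.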

Additional observations from a re-analysis of the deposited data

Results flagged for a closer look

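The effects of the 2 Sbk2 shRNAs, each against ppluc, were called in opposite directions for 5 members, and the difference between the effects, shRNA 1 minus shRNA 2, was tested directly in limma. It was 2.15 for Cfap20 (limma adjusted p = 2.4e-13), 0.854 for Bbs4 (8.2e-09) and 0.689 for Ift43 (3.8e-08), which were higher with shRNA 1 and lower with shRNA 2. It was -2.66 for Cfap36 (9.5e-16) and -1.36 for Cfap97 (2.4e-10), which were lower with shRNA 1 and higher with shRNA 2. In all 5 the libraries of the shRNAs did not overlap, 3 against 3. After trimmed-mean scaling Ift43 was no longer called with shRNA 1.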

How the results depend on the processing

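No paired analysis was possible because the recovered libraries carry no replicate number. Under trimmed-mean and median-of-ratios scaling the sign turned for Bbs2 between the shRNAs (0.025 and 0.0076), for Bbs4 in the mean of both shRNAs (-0.14 and -0.14), for Cfap53 with shRNA 2 (-0.36 and -0.35) and in the mean of both shRNAs (-0.30 and -0.30), and for Ift43 with shRNA 1 (-0.0042 and -0.014). Members called lower for the mean of both shRNAs numbered 0 as deposited and 4 under either scaling. Members called lower with shRNA 1 numbered 3, and 1 to 3 when a library was left out, with 1 without ppluc library c. Members called higher with ppluc than in untransduced cells numbered 4 as fitted, 1 with no filter, 2 with voom weights and 0 to 5 when a library was left out, with 2 without ppluc library a, 0 without ppluc library c and 2 without untransduced library a. An alternative added after seeing the data kept only genes with 0.5 CPM in at least 3 of the 6 ppluc and untransduced libraries, and left 26 higher and 3 lower calls among 31 members with each shRNA. The other counts of members stayed within 1.5 times under every alternative run. The cause of these changes was not tested. Genes of few reads, such as Cfap77, Cfap99 and Rsph9, are limited by depth.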

Other observations

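Below the threshold of 0.5 CPM, a few axonemal genes had more reads in 1 group than in the others. Rsph6a, a radial spoke gene known from sperm in mice, had 38 reads with shRNA 2, against 1 read with ppluc, a ratio of pooled CPM of 47.6 (exact 95% interval 8.04 to 1929). Most of the 38 reads came from 1 library, with 6, 23 and 9 in libraries a, b and c. Dnah12, an inner-arm dynein heavy chain gene, had 47 reads with shRNA 2, against 6 reads with ppluc (ratio 9.81, 4.19 to 28.1), and Cfap54, a central apparatus gene, had 26 against 4 reads (8.14, 2.82 to 32.1). Dnah5, an outer-arm heavy chain gene, had 29 reads with shRNA 1, against 2 reads with ppluc (17.4, 4.41 to 151). The 29 reads were 3, 7 and 19 in libraries a, b and c. The ppluc group in turn had those 2 reads against 24 in untransduced cells. These genes were chosen after their values were seen, and the intervals cover counting error only.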
